A study of Mus musculus with 2 samples.

Results

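Gene desert peaks were the sites of open chromatin in mouse regulatory T cells that lay far from the start of any protein-coding gene. A peak was counted as one when its summit lay outside every gene of the GENCODE M21 annotation, more than 1 kb from every transcription start site (TSS) and more than 100 kb from the nearest TSS of a protein-coding gene. Of the 34610 peaks of the thresholded list, 1140 met this rule (3.29%, exact Clopper-Pearson 95% interval 3.11 to 3.49%), or 13.4% of the 8479 intergenic peaks. The rule selected on position, and the signal served only to pick 1 summit for each interval. Open chromatin was mapped by ATAC-seq, in which the Tn5 transposase inserts adapters where DNA is accessible, in primary regulatory T cells of a male mouse aged 4 months. The animal came from the Foxp3CreERT2 and Rosa26YFP cross, in which the Foxp3 gene drives a tamoxifen-inducible Cre recombinase and a yellow fluorescent reporter sits at Rosa26, and the labels trace the cells back to the bone marrow. Whether tamoxifen was given, and how the cells were purified, is not given in the sources used here. Both libraries were technical replicates of 1 biological replicate, and each peak list is pooled over both. No other cell type was sampled. Every value thus describes 1 sample, and no test between groups or over animals could be made.

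Gene deserts are long stretches without protein-coding genes. Many hold enhancers that act over long distances on a promoter at the edge of the desert, or beyond it, through looping of the chromatin, and several deserts beside developmental and lymphocyte transcription factors are known as rich in such elements. CTCF is the factor that, with cohesin, anchors many loops and domain borders, whereas ETS, RUNX and AP-1 factors are regular occupants of T cell enhancers. Regulatory T cells are CD4 T cells that depend on Foxp3 and restrain immune responses.

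The label of the cells was checked first. All 4 T cell markers (Cd3e, Cd3g, Cd4 and Thy1) and all 5 regulatory T cell markers (Foxp3, Il2ra, Ctla4, Ikzf2 and Tnfrsf18) had a promoter peak, whereas 0 of 8 markers of CD8, B, myeloid, natural killer, erythroid and liver cells had one. Cd79a, a B cell receptor component, had 1 peak inside the gene. The signal of a peak, used throughout, is the authors' deposited enrichment value for that peak. It serves here to describe and rank peaks within this list. The depth of the libraries is unknown, since the lists hold no read counts, and all intervals given cover counting error only.

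The 5 desert peaks of highest signal are shown first, because they set out what this set contains: sequences that match mitochondrial DNA, and sites with a RUNX, ETS or CTCF motif. Each sequence runs from 100 bases before to 100 bases after the summit on the plus strand of GRCm38 (mm10), from the RefSeq genome, in lower case. Capitals mark every match to the 14 of 23 motifs searched whose share at desert summits exceeded 1.5 times that in the flanks. Words of the other motifs, such as a GATA word in the fifth sequence, stay in lower case. The first lies at chr5:60042885-60043085 with an OCT motif, the second at chr6:9889891-9890091 with none, the third at chr1:102628173-102628373 with a RUNX motif, the fourth at chr3:100359105-100359305 with an ETS motif and the fifth at chr11:22710793-22710993 with a CTCF motif.
G6pd2 desert: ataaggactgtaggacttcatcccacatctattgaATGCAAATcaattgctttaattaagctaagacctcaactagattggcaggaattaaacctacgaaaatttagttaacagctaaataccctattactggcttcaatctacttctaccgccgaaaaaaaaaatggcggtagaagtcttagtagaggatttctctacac
Nxph1 desert: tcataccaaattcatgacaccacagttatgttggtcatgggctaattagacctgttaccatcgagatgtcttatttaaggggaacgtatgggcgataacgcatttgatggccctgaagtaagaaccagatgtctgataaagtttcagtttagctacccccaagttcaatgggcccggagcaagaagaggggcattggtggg
Cdh20 desert: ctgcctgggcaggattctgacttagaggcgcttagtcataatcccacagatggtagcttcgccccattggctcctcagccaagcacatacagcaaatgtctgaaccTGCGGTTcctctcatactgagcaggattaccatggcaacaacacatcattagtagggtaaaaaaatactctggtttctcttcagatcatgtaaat
Tent5c desert: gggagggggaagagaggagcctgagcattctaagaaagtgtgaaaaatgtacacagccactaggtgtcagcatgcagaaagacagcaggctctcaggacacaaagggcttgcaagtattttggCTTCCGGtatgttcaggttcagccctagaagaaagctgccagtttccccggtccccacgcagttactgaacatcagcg
B3gnt2 desert: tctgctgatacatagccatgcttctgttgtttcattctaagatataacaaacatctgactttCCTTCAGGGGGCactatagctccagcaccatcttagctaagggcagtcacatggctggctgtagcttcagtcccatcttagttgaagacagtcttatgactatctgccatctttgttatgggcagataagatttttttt

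A second set shows, for 6 other motifs, the desert peak of highest signal with the motif wholly within 50 bases of the summit. Bases are those from 50 before to 50 after the summit on the plus strand, and capitals mark the motif named. Peaks of higher signal carried 4 of the 6 (AP-1, BATF-IRF, FOX and IRF) farther from the summit. They are an AP-1 motif at chr3:52555184-52555284, 286.9 kb from the nearest TSS of Foxo1, a composite BATF-IRF motif at chr1:79561362-79561462 in the desert beside Ap1s3, an NF-kB motif at chr3:10648229-10648329 beside Snx16, a PU.1 motif at chr1:161671056-161671156 beside Fasl, a forkhead (FOX) motif at chr15:5414603-5414703 beside Ptger4 and an IRF motif at chr10:20835277-20835377 beside Pde7b. The IRF and PU.1 motifs were read on the minus strand and appear as their reverse complement.
AP-1 beside Foxo1: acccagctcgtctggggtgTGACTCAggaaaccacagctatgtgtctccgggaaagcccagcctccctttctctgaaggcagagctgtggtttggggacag
BATF-IRF beside Ap1s3: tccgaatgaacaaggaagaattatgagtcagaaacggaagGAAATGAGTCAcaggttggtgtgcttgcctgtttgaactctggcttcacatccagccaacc
NF-kB beside Snx16: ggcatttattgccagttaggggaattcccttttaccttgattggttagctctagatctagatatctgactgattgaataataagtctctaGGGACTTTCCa
PU.1 beside Fasl: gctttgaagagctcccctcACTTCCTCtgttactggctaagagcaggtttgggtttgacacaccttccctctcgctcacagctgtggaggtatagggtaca
FOX beside Ptger4: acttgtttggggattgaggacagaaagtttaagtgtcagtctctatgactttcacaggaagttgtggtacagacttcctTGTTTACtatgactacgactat
IRF beside Pde7b: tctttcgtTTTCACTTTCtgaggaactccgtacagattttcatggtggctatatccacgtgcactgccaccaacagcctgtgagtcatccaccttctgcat
The signals of these 6 peaks were 28.0, 18.6, 22.4, 28.8, 24.4 and 25.96, in the order shown. All but the BATF-IRF peak ranked among the 100 desert peaks of highest signal.

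Deserts made up a large part of the genome and held few open sites. Bases that met the rule came to 737.8 Mb, or 27.9% of the 2647.5 Mb outside assembly gaps, and held 1.55 peaks per Mb (exact Poisson 95% interval 1.46 to 1.64). The remaining bases held 17.5 peaks per Mb, 11.3-fold more. Intergenic sequence nearer to coding genes was intermediate, with 10.1 peaks per Mb (9.87 to 10.4) at 10 to 100 kb from a coding TSS, where 5168 peaks lay, and 15.4 per Mb (14.8 to 16.1) at 1 to 10 kb, where 2171 lay.

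Inside the deserts the density went on falling with distance. There were 691 peaks at 100 to 200 kb (3.23 per Mb, 2.99 to 3.48), 365 at 200 to 500 kb (1.23, 1.11 to 1.37), 60 at 500 to 1000 kb (0.375, 0.286 to 0.483) and 24 beyond 1000 kb (0.354, 0.227 to 0.527). Of neighbouring bands, only the 2 outermost had overlapping intervals. The median distance to a coding TSS was 173.4 kb (interquartile range 131.3 to 262.7 kb), and the farthest peak lay 2140 kb away.

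**Figure D1:**
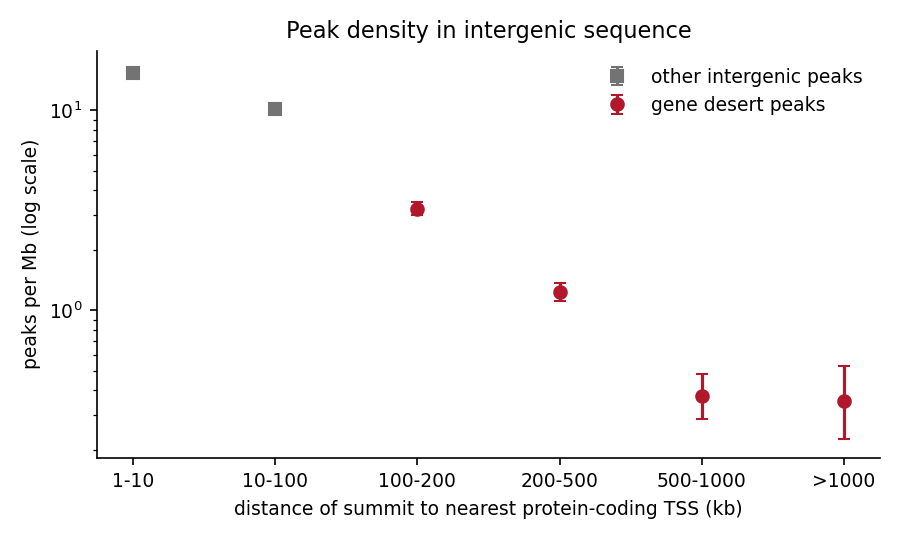
Peaks per Mb of intergenic sequence (log axis) by distance of the summit to the nearest protein-coding TSS in kb. Points are densities and bars exact Poisson 95% intervals. Squares are intergenic peaks within 100 kb and circles are gene desert peaks, whose density went from 3.23 per Mb at 100 to 200 kb to 0.354 per Mb beyond 1000 kb.

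The signal of desert peaks was close to that of peaks nearer to genes. Its median was 12.95 (interquartile range 9.62 to 17.2, full range 2.01 to 47.5), against 13.2 for the peaks at 10 to 100 kb, 11.1 at 1 to 10 kb, 15.4 at promoters and 13.2 over all peaks. Across the 4 distance bands the medians were 13.3, 12.7, 11.5 and 13.3, from near to far, with interquartile ranges that overlapped, and the Spearman correlation of signal with distance was −0.016 over the 1140 peaks. The median width was 607.5 bp (interquartile range 439 to 796 bp), against 587 bp at 10 to 100 kb and 490 bp at 1 to 10 kb. More than 1 summit was listed in 533 peaks (46.8%, 43.8 to 49.7%), against 47.1% at 10 to 100 kb. The −log10 p had a median of 82.4, against 87.7 at 10 to 100 kb.

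The irreproducible discovery rate (IDR) measures how well peak ranks repeat between 2 inputs, and the thresholded list keeps peaks that pass it. The −log10 p of the inputs had a Spearman correlation of 0.928 over the 1140 peaks, which were kept because their inputs were alike. Over all 2438 ranked desert peaks, with no threshold, it was 0.877. Both describe peaks of 1 pool. The larger input exceeded the smaller by a median factor of 1.18, and by more than 2-fold in 15 peaks. A peak of the longer pseudoreplicated list lay over 1139 of them (99.9%).

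The sequence under the summits was poorer in G and C than nearer to genes. In 200 bp windows on the summit the median GC content was 46.75%, against 49% at 10 to 100 kb and 50% at 1 to 10 kb, and the observed to expected CpG ratio was 0.234 against 0.275 and 0.278. Summits lay in repeats less often than desert bases do: 115 (10.1%, 8.40 to 11.98%) lay in repeat-masked sequence, although 44.8% of desert bases are masked. The shares at 10 to 100 kb and 1 to 10 kb were 9.58% and 10.7%, with 42.4% and 39.9% of bases masked.

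At the 100 kb limit only the signals of the nearest peaks on either side were compared. The 5 desert peaks just inside it, beside Chic2, Cdc42ep3, Tmsb4x, Ankrd46 and Cd47 (100.1 to 100.5 kb), had signals of 26.6, 12.4, 8.26, 17.5 and 7.60. The 5 intergenic peaks just outside, beside Ppm1h, Zfp706, Ap1s3, Zfp217 and Hey1 (99.7 to 99.9 kb), had signals of 18.1, 13.9, 12.8, 7.69 and 16.2. Both sets spanned weak and strong peaks and their ranges overlapped.

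A summit far from coding TSSs was not always far from an annotated gene. The nearest TSS of any biotype lay at a median of 31.5 kb, with 218 peaks (19.1%) within 10 kb and 992 (87.0%) within 100 kb of one. Measured to the nearest edge of the gene instead of its TSS, the nearest gene was a lincRNA, a long intergenic noncoding RNA, for 431 peaks (37.8%, at a median of 19.004 kb), a processed pseudogene for 308 (29.99 kb) and a protein-coding gene for 106 (46.3 kb). The label also took in 25 peaks (2.19%) within 100 kb of immunoglobulin or T cell receptor segments, whose annotated biotypes are not protein_coding. Of these, 12 lay among the immunoglobulin heavy chain segments between Adam6a and Zfp386 on chromosome 12 (median signal 12.7) and 10 in the T cell receptor alpha and delta locus between Olfr1507 and Dad1 on chromosome 14 (median signal 11.9). These loci are gene-rich in segments, so the term gene desert does not describe them. Leaving the 25 peaks out gave 1115 peaks and a median signal of 12.96. The density was then 1.51 per Mb, with the bases of these loci still counted.

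The 3 desert peaks with the highest −log10 p lay on chromosome sequence that matches the mitochondrial genome. The summit window of the peak at chr12:97061371-97061856, 1155 kb from Galc, matched the mitochondrial genome at 100% identity over its whole length, and its −log10 p was 5756. The peak at chr5:60042667-60043155, 1766 kb from the retrogene G6pd2, matched at 98.0% with a −log10 p of 4233 and had the highest signal of the set (47.5). That at chr6:9889881-9890223, 940.3 kb from Nxph1, matched at 96.99% with a −log10 p of 949 and had the second highest signal (39.0). The highest −log10 p among the other 1137 desert peaks was 795, beside Maf, and their highest signal was 36.95. Each of the 3 windows also had 1 other near-identical copy in the chromosomes. In the IDR inputs the −log10 p of the Galc peak was 2879 and 2843, that of the G6pd2 peak 2121 and 2115, and that of the Nxph1 peak 509 and 443. How reads from mitochondria were handled is not given in the sources used here, and their part in these 3 values was not tested. The whole list had 20 such peaks, of which 3 lay at 10 to 100 kb from a coding TSS and 0 at 1 to 10 kb.

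**Figure D2:**
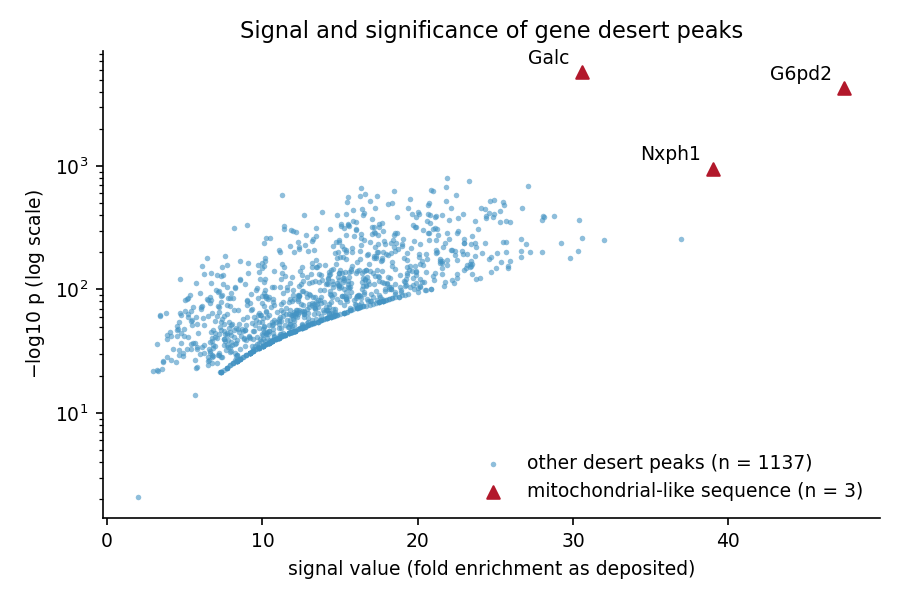
Signal value (the deposited fold enrichment) against −log10 p (log axis) of the 1140 desert peaks. Triangles are the 3 peaks whose summit window matches the mitochondrial genome, named by the nearest coding gene, and have a −log10 p of 949 or more, while the other 1137 reach 795.

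Other near-identical copies were uncommon. A second copy at 95% identity or more over at least 75% of the window was found for 41 desert peaks (3.596%), and the other 1099 (96.4%) were single-copy by this measure. The third peak by signal, at chr1:102628121-102628395, was among the 41. It lay 2140 kb from Cdh20, a cadherin gene, and was the farthest of all from a coding TSS, with a signal of 36.95, a −log10 p of 255 and inputs of 104 and 154. The others of the 5 farthest lay beside G6pd2 (1766 kb), Cntnap5b (1650 kb, signal 18.3), Kcnt2 (1414 kb, signal 10.4) and Sis (1388 kb, signal 13.5).

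The strongest of the remaining desert peaks lay beside genes of several functions. The fourth by signal, at chr3:100359036-100359584, was 129.99 kb from Tent5c, a poly(A) polymerase of lymphocytes (signal 31.97), and the fifth, at chr11:22710561-22711201, was 148.7 kb from the glycosyltransferase gene B3gnt2 (30.6). The Galc peak ranked sixth (30.6). The next were beside Tab2, an adaptor of NF-kB signalling (chr10:8065534-8066248, 30.4), the Mediator subunit Med13l (chr5:118413377-118413877, 30.3), the actin-like gene Actbl2 (chr13:110967886-110968457, 29.8) and Hivep2, a zinc finger factor that binds NF-kB sites (chr10:14207533-14208139, 29.2). Of the 100 peaks of highest signal in the whole list, 4 were desert peaks, close to the 3.29% of all peaks. They were the G6pd2 and Nxph1 peaks, which match mitochondrial DNA, the Cdh20 peak, which has another copy, and the Tent5c peak.

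Words bound by ETS, RUNX and AP-1 factors were more frequent under desert summits than 1 kb away. Consensus words were searched on both strands in the 200 bp summit windows, and in windows of the same length centred 1 kb to either side of each summit, which give the background share. The ETS words were CCGGAAG or CAGGAAG and were present in 341 summit windows (29.9%, 27.3 to 32.7%) against 9.08% of 2280 flanking windows, a ratio of 3.29. The RUNX words were TGTGGTT or TGCGGTT, in 196 windows (17.2%, 15.05 to 19.5%) against 5.22% (ratio 3.29). The AP-1 word was TGACTCA, in 149 windows (13.1%, 11.2 to 15.2%) against 3.90% (ratio 3.35). In each of these the interval at summits lay wholly above that of the flanks.

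CTCF motifs had the highest ratio but were fewer in number than these. The CTCF core, searched by a consensus of 12 positions and named here only, was found in 114 windows (10%, 8.32 to 11.9%) against 0.746% of the flanks, a ratio of 13.4. Of CTCF, ETS, RUNX and AP-1 motifs it sat closest to the summit, at a median of 14 bp, with 74.6% of the motifs within 25 bp. An even spread of single motifs over the window gives 25%. In windows with several matches the one nearest to the summit was taken, so for these motifs an even spread gives more than 25%. ETS motifs lay at a median of 23.5 bp (52.8% within 25 bp), RUNX at 27.5 bp (44.4%) and AP-1 at 30.5 bp (45.6%).

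Other immune motifs were rarer. NF-kB motifs were found in 24 windows (2.11%, 1.35 to 3.12%, against 0.219% in flanks, ratio 9.60), PU.1 motifs (GAGGAAGT) in 72 (6.32%, 4.97 to 7.89%, against 0.877%, ratio 7.20), and IRF motifs in 87 (7.63%, 6.16 to 9.33%, against 3.46%, ratio 2.20). The PU.1 word is bound by many ETS factors and does not name PU.1 itself. The composite BATF-IRF motif, which joins a site of the AP-1 type, with any central base, to part of an IRF site and so can contain the AP-1 word, was found in 11 windows (0.965%, 0.483 to 1.72%, against 0.263%), and the intervals overlapped. KLF and SP words (GGGGCGGG or GGGTGTGG) were in 48 windows (4.21% against 1.18%), the OCT word ATGCAAAT in 31 (2.72% against 1.14%), and the forkhead word TGTTTAC, of the family that holds Foxp3 and Foxo1, in 49 (4.30%, 3.20 to 5.64%, against 2.63%, 2.01 to 3.37%), with overlapping intervals.

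TCF and LEF words (CTTTGAT or CTTTGAA) stood in 146 windows (12.8%, 10.9 to 14.9%) against 8.73% (7.60 to 9.96%) in flanks, a ratio of 1.47. The E-box word CAGGTG had a ratio of 1.23, the GATA word AGATAAG 1.31 and the STAT word TTCCNGGAA 1.16, each with overlapping intervals. Words of NFAT (TTTTCCA) and ROR (TAGGTCA) were less frequent at summits than in flanks, with ratios of 0.829 and 0.607, and their intervals also overlapped. The motif of the liver factor HNF1 was found in 0 of 1140 windows, which allows a share of up to 0.323% by the exact interval.

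The CTCF share was lower in deserts than closer to genes. It was 18.01% (16.98 to 19.1%) at 10 to 100 kb and 22.4% (20.7 to 24.2%) at 1 to 10 kb, and the desert share of 10% lay below that of the 10 to 100 kb band in all 20 chromosomes with at least 10 desert peaks. The flanking windows also held fewer CTCF motifs in deserts, 0.746% against 1.64% and 2.16%, so the ratio of summit to flank was 13.4 against 11.0 and 10.4. RUNX motifs went the other way, with 17.2% in deserts (15.05 to 19.5%) against 13.2% (12.3 to 14.1%) at 10 to 100 kb and 12.6% (11.2 to 14.0%) at 1 to 10 kb. By chromosome the RUNX share was higher in deserts in 12 of 20. TCF and LEF words also had a higher share in deserts, 12.8% (10.9 to 14.9%) against 9.98% (9.18 to 10.8%) at 10 to 100 kb. Their share was higher in deserts in 13 of 20 chromosomes and lower in 7. ETS shares of 29.9%, 27.9% and 24.1% and AP-1 shares of 13.1%, 11.4% and 8.66%, from deserts to the nearest band, overlapped in interval between deserts and 10 to 100 kb. Peaks of 1 pool are no replicates, so these differences in share have no test, and the lower GC content of desert windows was not removed from them.

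**Figure D3:**
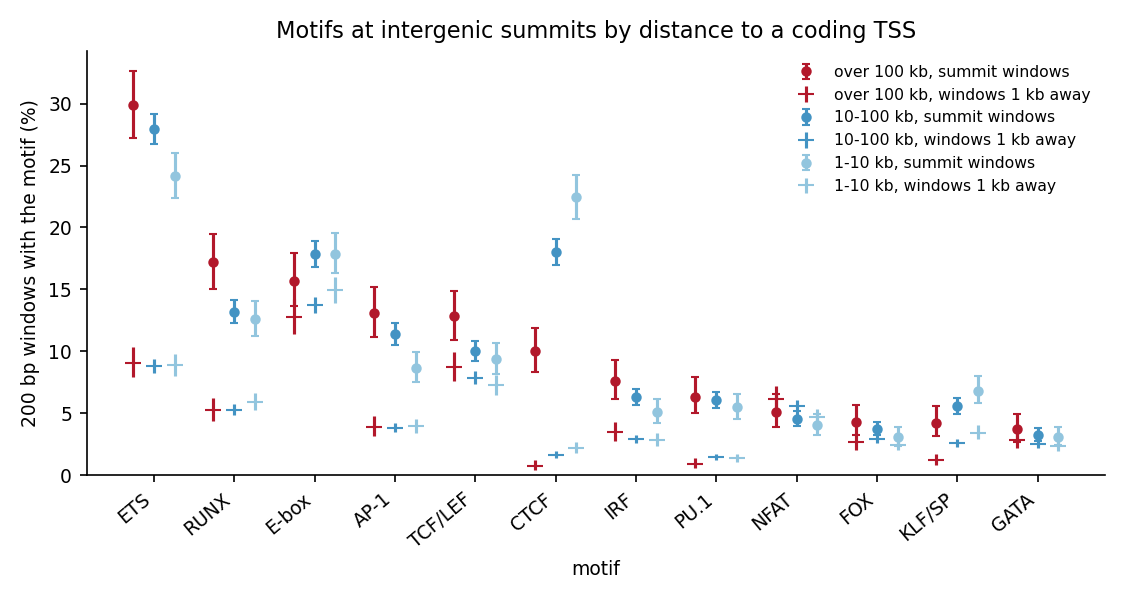
Share of 200 bp windows with each of the 12 motifs most frequent at desert summits, for intergenic peaks over 100 kb (n = 1140), 10 to 100 kb (n = 5168) and 1 to 10 kb (n = 2171) from a coding TSS. Circles are summit windows, crosses are windows 1 kb to either side, and vertical bars are exact 95% intervals. CTCF rises from 10% in deserts to 22.4% near genes, while ETS goes from 29.9% to 24.1%.

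Desert peaks with and without a CTCF motif differed in shape more than in height. The 114 with the motif had a median signal of 12.98, against 12.94 for the other 1026, but a width of 458.5 bp against 625.5 bp and a −log10 p of 65.0 against 84.5. CTCF seldom shared a window with the other motifs: 12 windows also held an ETS motif, 10 a RUNX motif and 2 an AP-1 motif. These were 1.05%, 0.877% and 0.175% of windows, where the products of the single shares give 2.99%, 1.72% and 1.31%. The strand of the CTCF motif pointed toward the nearest coding TSS in 67 of 114 peaks (58.8%, 49.2 to 67.9%), an interval that includes equal numbers.

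Among peaks without a CTCF motif, those that combined ETS, RUNX and AP-1 motifs had the higher median signal. The 106 windows with at least 2 of ETS, RUNX and AP-1 and no CTCF had a median signal of 15.01 (interquartile range 11.1 to 18.5) and a −log10 p of 124. The 447 with 1 of these had 13.2 (9.34 to 16.96) and 82.2, and the 473 with none of the 4 motifs had 12.4 (9.18 to 16.8) and 83.1. The quartile ranges overlapped widely. ETS and AP-1 shared 52 windows (4.56%, 3.43 to 5.94%), where the product of their single shares gives 3.91%. ETS and RUNX shared 44 (3.86%, 2.82 to 5.15%), where the product gives 5.14%. Both intervals include the product.

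Most deserts held no desert peak and a few held many. Desert bases fell into 1859 intervals between neighbouring coding TSSs more than 200 kb apart, or, for 21 of them, between a coding TSS and a chromosome end, and 363 of them (19.5%, 17.7 to 21.4%) held at least 1 desert peak. The 66 intervals with 5 or more held 599 peaks (52.5%), and the 10 fullest held 173 (15.2%) in 8.496 Mb, or 1.15% of desert bases. Desert peaks were absent from 1496 intervals with 552.5 Mb (74.9% of desert bases), including 150 of the 199 intervals with at least 1 Mb of desert (75.4%). The longest without any were those between Olfm4 and Pcdh17 (4101 kb of desert), Celf4 and Pik3c3 (3780 kb) and Slc39a10 and Tmeff2 (3612 kb).

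The fullest desert lay beside Foxo1, the forkhead factor that keeps T cells quiescent and homing to lymphoid organs. Between the TSSs of Foxo1 and Cog6, a Golgi complex subunit, 438 kb of desert on chromosome 3 held 32 peaks (73.0 per Mb), at 122 to 610 kb from the TSS of Foxo1. The nearest coding TSS was that of Foxo1 for 12 of them and that of Cog6 for 20. Signals ran from 4.59 to 28.0 with a median of 13.5. The strongest, at chr3:52554838-52555551, 286.9 kb from Foxo1, had a signal of 28.0 and a −log10 p of 393 with inputs of 189 and 200, and is the AP-1 example printed above. The next were at chr3:52411171-52411895 (143 kb, signal 23.4), chr3:52457969-52459154 (191 kb, 22.1) and chr3:52634317-52635040 (366 kb, 21.6). The weakest, at chr3:52401182-52401442, had 4.59. ETS motifs were found in 10 of the 32, RUNX in 7, AP-1 in 2 and CTCF in 1.

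Of the other crowded deserts, those beside Gata3, Tox and Id2 adjoined regulators of T cells. Genes of the T cell lists described below border 50 of all 1859 desert intervals. The desert between Celf2 and Gata3, the factor of T cell commitment and type 2 helper cells, held 17 peaks, and for 16 of them Gata3 had the nearest coding TSS, at 114 to 1119 kb, with signals of 7.24 to 26.7. All 17 lay 1165 kb or more from Celf2. The desert between Tox, a factor of CD4 T cell development, and Car8 held 17 peaks (signals 5.66 to 19.8, median 13.2), and that between Id2, an inhibitor of E proteins, and Rnf144a held 16 (4.49 to 25.1, median 11.6). In the Id2 desert the desert peaks formed 2 groups, 9 at 117 to 203 kb from Id2 and 7 nearer to Rnf144a. Of the 1213 kb between both TSSs, 703 kb met the rule, and the whole list held 32 peaks there. Whether peaks that the rule leaves out lie between the groups was not examined. The desert between Ptger4, a prostaglandin E2 receptor, and Dab2 held 17 (5.13 to 24.4, median 14.5), and neither gene is on those lists.

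Bcl11b, the factor of T cell identity, borders a desert of 259 kb with 3 peaks and lies 1 gene away from a fuller one. The interval between Vrk1 and 3110018I06Rik on chromosome 12 held 17 peaks, at 641 to 1820 kb from the most distal TSS of Bcl11b (chr12:108003602), with signals of 3.53 to 23.4 and a median of 12.02. This link to Bcl11b was drawn after the values were seen. Bcl11b had the nearest coding TSS for 1 desert peak (188 kb, signal 14.9). The remaining intervals of the 10 fullest were Gm5426 to Btg1, an antiproliferative gene of quiescent lymphocytes (15 peaks, 79.4 per Mb), Rasa1 to Cox7c (15), Agtr1b to Tbl1xr1 (14) and Stt3b to Gadl1 (13). Rasa1, a brake on Ras signalling, had the nearest TSS for 14 of the 15 in its desert.

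**Figure D4:**
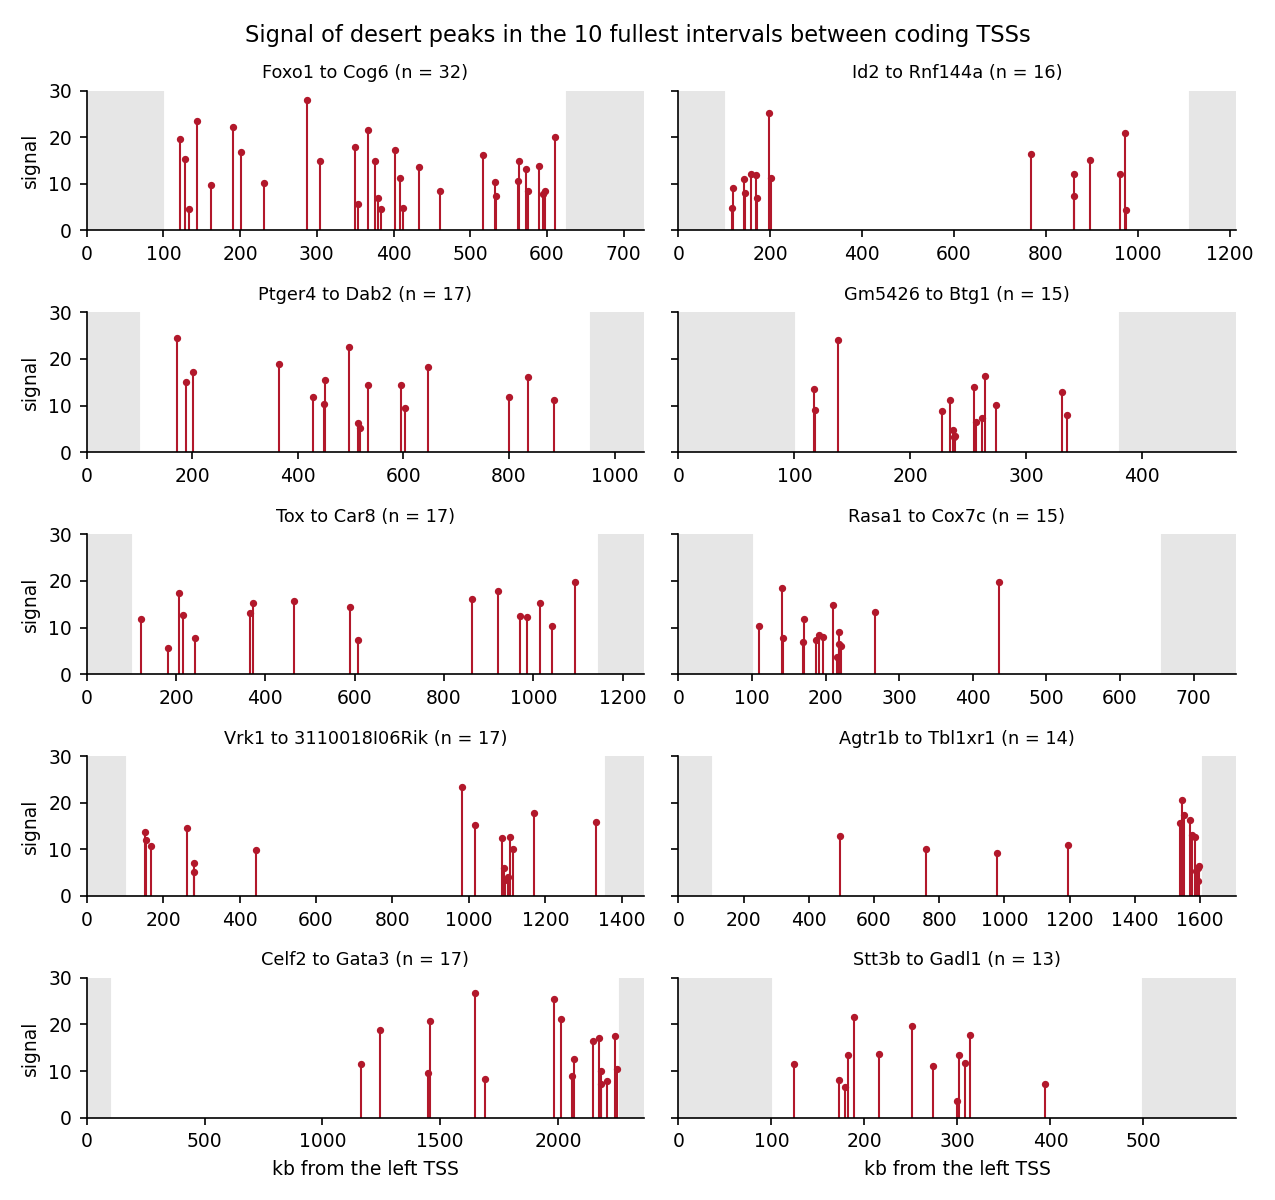
Signal of each desert peak (stems) against its position in kb from the coding TSS of lower coordinate, in the 10 desert intervals with most desert peaks. Grey marks the 100 kb at each end, which the rule leaves out. The rule also leaves out sequence inside any annotated gene or close to any TSS, which is not marked. A blank stretch thus means only that no desert peak was listed there. The 32 peaks between Foxo1 and Cog6 are spread over the interval, whereas the 17 between Celf2 and Gata3 all lie 1165 kb or more from its left end.

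Most T cell genes of the lists that border a desert had an open site in it. Over all 3025 coding genes that border a desert interval, 681 (22.5%, 21.03 to 24.04%) had at least 1 desert peak in a bordering interval. Of 46 transcriptional regulators of T cells 24 border a desert, and 19 of these had one (79.2%, 57.8 to 92.9%). Of 52 surface and signalling genes of T cells 18 border one, and 12 had a peak (66.7%, 41.0 to 86.7%). Together 31 of 42 (73.8%, 58.0 to 86.1%) had one, with a median of 3.5 peaks. The deserts beside them were longer than usual, with a median of 297 kb against 208 kb over all bordering genes. They held 11.1 peaks per Mb against 1.55 over all deserts. Both densities count every base alike, so long deserts weigh most. The 199 intervals with at least 1 Mb of desert took up 346.6 of the 737.8 Mb and held 0.551 per Mb. The deserts compared were not matched for length. The lists were drawn up with earlier results on these cells known, so the counts describe and do not test.

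In order of peaks in the bordering deserts, the regulators were Foxo1 (32), Tox (18), Gata3 (17), Id2 (16), and Myc (15), the growth regulator. Myc had the nearest TSS for 9 peaks, all at 446 to 837 kb, with signals of 6.73 to 17.9. Maf, a factor of interleukin 10 producing T cells, followed with 13, with a highest signal of 24.6. Ets1 had 7 (102 to 399 kb, 4.50 to 25.7), the chromatin organiser Satb1 was nearest for 3 (signals up to 16.8), Bach2, which holds back effector differentiation, for 2 (9.71 and 25.3) and Ikzf2, which encodes Helios, for 1 (10.7). Sox4 borders a desert with 0 desert peaks. Foxp3 and Il2ra border no desert, so neither could have a desert peak as defined here.

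Of the surface and signalling genes, Nrp1, a coreceptor of thymic regulatory T cells, led with 19 peaks in its bordering deserts, and was the nearest coding gene for 10. The ubiquitin ligase gene Cblb, which restrains T cell activation, had 12 (highest signal 27.1 among the 10 nearest), and the homing receptor Cxcr4, the phosphatase Dusp4 and the integrin Itgb1 had 8 each. Part of the Nrp1 count is shared with Itgb1, because 8 of the peaks lie in the desert between both genes. The list genes that border a desert without any desert peak were Foxp1, Sox4, Rora, Zeb1, Bcl6, Thy1, Ptprc, Rgs2, Nt5e, Klrg1 and Elmo1.

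Lists of other lineages had 0.362 to 1.86 desert peaks per Mb. Of 29 developmental regulators beside a desert, 8 had a peak (27.6%, 12.7 to 47.2%), led by Sall3 with 10, Sox5 with 8 and Tshz1 with 3, and their deserts held 1.15 peaks per Mb. Of 35 neural adhesion genes, 15 had one (42.9%, 26.3 to 60.6%), led by Flrt2 with 11 and Lrrtm3 with 5. Their deserts were long, with a median of 2543 kb, and held 0.362 peaks per Mb. Of 9 regulators of other blood lineages, 4 had one (44.4%, 13.7 to 78.8%), namely Ebf1 and Kit with 3 each and Meis1 and Klf4 with 1 each, and their deserts held 1.86 peaks per Mb. The last interval is wide and overlaps those of the other lists. The interval of the neural adhesion genes overlaps those of both T cell lists as well. It also lies above that of all bordering coding genes (22.5%, 21.03 to 24.04%), so a share above background was not limited to T cell genes. The interval of the developmental regulators overlaps that of the T cell surface and signalling genes.

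**Figure D5:**
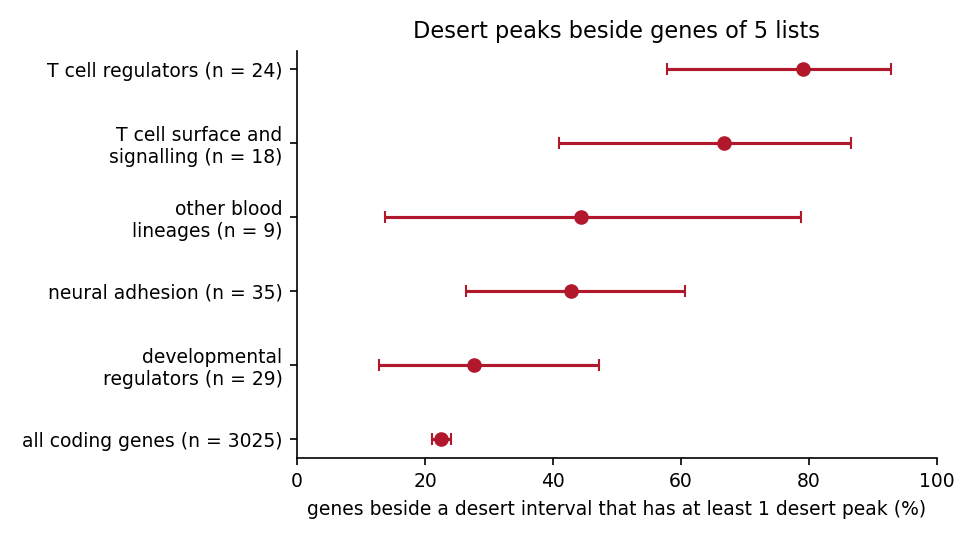
Share of the genes of 5 lists, and of all coding genes, that border a desert interval and have at least 1 desert peak in it, with exact 95% intervals and the number of bordering genes. The T cell regulators stand at 79.2% and the T cell surface and signalling genes at 66.7%, against 22.5% over all 3025 genes. The neural adhesion genes stand at 42.9%, with an interval that overlaps those of both T cell lists.

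Some desert peaks stood in short clusters. Linking neighbouring desert summits within 0.0125 Mb gave 65 clusters of 3 or more with 244 peaks (21.4%, 19.1 to 23.9%), while 308 peaks stood in pairs and 588 (51.6%) alone. The largest cluster had 7 summits in 27.1 kb between Agtr1b and Tbl1xr1, with its nearest member 113 kb from Tbl1xr1, a corepressor subunit, signals of 3.29 to 16.3 and 3 ETS motifs, 2 RUNX motifs and no CTCF motif. Clusters of 6 lay in the deserts beside Foxo1 (signals 4.63 to 21.6), Rap1b (5.88 to 21.1), Gadd45g (7.05 to 16.8), Srek1ip1 (5.02 to 15.9), Rplp1 (4.27 to 12.4) and 3110018I06Rik (3.53 to 12.7). None of these 7 clusters held a CTCF motif. Among the fullest deserts, 21 of 32 peaks between Foxo1 and Cog6 were clustered, against 0 of 17 between Ptger4 and Dab2, 0 of 17 between Tox and Car8 and 3 of 17 between Celf2 and Gata3.

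Clustered peaks had lower signal and fewer CTCF motifs than lone ones. The median signal was 10.5 in clusters of 3 or more against 14.6 for peaks alone, whereas the median −log10 p was 88.6 against 80.7, so the order depended on the measure. The reference against which the signal was computed is not stated, and its part in this difference was not tested. CTCF motifs were found in 9 clustered peaks (3.69%, 1.70 to 6.89%) and in 71 lone ones (12.1%, 9.55 to 14.99%). The shares of ETS (30.7% against 28.9%), RUNX (16.0% against 18.9%) and AP-1 motifs (12.7% against 11.4%) overlapped in their intervals.

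Chromosomes differed in the density of desert peaks listed on them, and the cause was not tested. Chromosome 10 had the highest density, with 115 desert peaks (3.65 per Mb, 3.02 to 4.39), followed by chromosome 13 with 100 (3.30, 2.69 to 4.02), chromosome 9 with 69 (2.88, 2.24 to 3.64) and chromosome 12 with 114 (2.71, 2.23 to 3.25). Chromosome 11 had 11 (0.468, 0.234 to 0.838), although over all its peaks it was the densest with 19.1 per Mb. Chromosome X had 29 (0.532, 0.356 to 0.764), and the single Y chromosome peak stood in 55.1 Mb. Over all peaks the densities of X and Y were also low, at 5.10 and 0.148 per Mb.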

How the data were processed

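ATAC-seq peak lists of 2 libraries, technical replicates of 1 biological replicate, were analysed. The authors deposited pooled narrowPeak lists on mm10, per the file listings, and per the submitters' labels the assembly is mm10. The aligner, caller and any read shift were not given in the sources used here. Each deposited line holds the authors' signal value, a fold enrichment (ratio) whose reference is not stated, and a −log10 p. The deposited ranked list adds, as rank scores, the −log10 IDR and the −log10 p of both inputs, whose nature is not stated. The 68653 lines were reduced to 34610 intervals, each at its summit of highest signal.

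Distances were taken to GENCODE M21 TSSs on GRCm38, the same assembly. All transcripts of protein-coding genes counted as coding TSSs, and the nearest gene of any biotype was found by distance to the gene itself. Bases meeting the rule were counted exactly over 21 chromosomes, and lower case letters of the RefSeq genome were taken as repeats. Motifs (23) were searched as consensus words. Summit windows were aligned with BLAST 2.17.0 to the mitochondrial genome (expect value 1e-10) and to the chromosomes. Python 3.11.15, pandas 2.3.3 and scipy 1.17.1 were used. Functions were tested on simulated data.

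Named regions were the 10 desert peaks of highest signal, the 10 fullest intervals, the 5 farthest peaks, 5 peaks on each side of the limit, up to 5 genes per list with most peaks, and 12 fixed genes. Any further gene was named with its values in view. Sequences were chosen by signal and motif within the printed window, without those of CREB, KLF and SP, MEF2, OCT and T-box. Members, rule and gene lists (199 genes, of which 198 matched and Lphn3 did not) were chosen with earlier results of these data known. Alternatives used other lists, signal limits, distances, TSS sets, windows and links. No p-value was computed, because peaks are not replicates.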

Additional observations from a re-analysis of the deposited data

How the results depend on the processing

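The alternatives numbered 83 over 14 results, of which 52 stayed within the interval of the value reported and 31 moved outside it. With the pseudoreplicated list the desert share of peaks was 4.11%, the density 3.28 per Mb, the median signal 7.72, the width 428 bp, the ETS share 27.2%, intervals with a peak 30.4% and clustered peaks 38.3%. With the peaks at or above the median signal the density was 0.745 per Mb, masked summits 8%, ETS 33.5%, intervals with a peak 14.95% and clustered peaks 3.45%. A limit of 50 kb gave a share of 6.77% and 2.54 per Mb, 200 kb gave 1.297% and 0.857, TSSs of any biotype gave 0.428% and 0.819, every summit gave 2.80% and 2.60, and coding transcripts only, an alternative chosen after seeing the data, gave 3.61% and 1.65. Windows of 100 bp gave ETS, RUNX and AP-1 shares of 23.2%, 11.9% and 10.1%, and windows of 400 bp gave 35.5%, 23.0% and 17.6%. Linking within 5 kb put 5.26% of desert peaks in clusters, and within 25 kb 37.4%. Over all ranked desert peaks the Spearman correlation of the inputs was 0.877. A limit on signal, distance, summits, window or linking changes how many peaks, bases or positions enter, and beyond that the cause was not tested. Leaving out mitochondrial-like peaks, or those near antigen receptor segments, both chosen after seeing the data, moved none of the values it was run on outside its interval. The share of T cell list genes and the CTCF share also stayed within theirs in all alternatives run on them. No paired analysis was possible because the peak lists are pooled over both libraries and the IDR inputs are not labelled by library. For the same reason no library could be left out. Depth is unknown and peaks that the rule leaves out were not counted, so an empty desert means only that no desert peak was listed there.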

Other observations

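Some deserts beside genes outside the named lists also held many open sites. These genes were chosen after their values were seen. Gadd45g, a stress gene induced by cytokines, had the nearest coding TSS for 12 desert peaks, Trib2, a pseudokinase of the Tribbles family, for 11, and the TSS of Btg1 for 14. Between Ubl3 and Katnal1, 11 peaks lay in 112 kb of desert (98.3 per Mb, signals 3.6003 to 21.6), and between Rap1b and Mdm1 9 lay in 91.5 kb (98.3 per Mb, signals 4.94 to 21.1). The desert between Ifng, the interferon gamma gene, and Dyrk2 held 7 peaks with a median signal of 17.7 (9.18 to 25.3). The 445 coding genes nearest to a desert peak included 58 with 5 or more, which took 473 of the 1140 peaks.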
